A study of Mus musculus with 2 samples.

Results

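Regulatory T cells were examined among the stromal vascular cells of epididymal fat, the non-adipocytes released when this visceral white adipose tissue is digested, by droplet (10x Chromium) single-cell 3′ RNA-seq. Cells were chosen by their own transcripts. A barcode was a member when it carried at least 2 UMIs (unique molecular identifiers, counted transcripts) of Cd3d, Cd3e and Cd3g together, no UMI of Cd8a or Cd8b1, low complement C1q and collagen transcripts, and either at least 1 Foxp3 UMI or at least 1 UMI each of Il2ra and Ctla4. This gave 76 members among 21117 barcodes that passed the filter on depth and mitochondrial UMIs. There were 49 among 8032 in KO, the Camk2d myeloid conditional knockout, and 27 among 13085 in WT, the wild type. Both genotypes had been fed a high-fat diet for 10 weeks. Each genotype was represented by 1 library, so no difference between genotypes could be tested, and every interval below is a 95% interval for counting error alone and says nothing of how animals vary. The labels give the knockout as myeloid and name no Cre driver, deleted exons, age, sex or number of animals. One description field names embryonic hindlimb, whereas all other fields name adipose tissue.

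Regulatory T cells restrain other immune cells and are defined by the X-linked transcription factor Foxp3. They hold the high-affinity IL-2 receptor chain Il2ra and the inhibitory receptor Ctla4. In visceral fat of lean mice a distinct population is known that depends on Pparg, carries the IL-33 receptor chain Il1rl1 (ST2), the transcription factor Gata3, Klrg1 and Ccr2, and secretes Il10 and the growth factor amphiregulin (Areg). Activated conventional T cells and some innate-like lymphocytes also carry Il2ra and Ctla4.

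The KO library held 10631 barcodes and 87015918 UMIs, and the WT library 15555 barcodes and 75436677 UMIs. The labels state 10000 to 13000 cells loaded per library. The WT barcodes exceed that number, even the 13085 past the filter, so not every WT barcode can be a separate loaded cell. The part of this in the WT shares and levels was not tested. Members had a median of 6703 UMIs in KO and 4404 in WT, with ranges of 2175 to 22944 and 2296 to 21473. The libraries shared 48 cell barcodes, none of them a member's. Transcripts of other cell types were present in the members at levels that differed between the libraries. The 8 macrophage markers summed to a median of 5.11 UMIs per 10000 (range 0 to 26.6) in KO members and 14.2 (3.28 to 39.9) in WT members. The 8 adipose progenitor markers summed to medians of 4.40 in KO and 18.8 in WT members, and the 5 erythroid markers to 23.0 and 56.8. At least 3 UMIs of B, myeloid or NK genes, or a depth above 3 times the median, marked 13 of 49 KO and 20 of 27 WT members as doublet-like. The myeloid limit was met by 9 KO and 20 WT members, the B limit by 3 and 2, and the NK limit by 3 and 0. No WT member held more than 11 of the myeloid UMIs, and all 27 held macrophage marker UMIs. Whether the marked members are doublets, and their part in the differences between genotypes, was not tested. Of the markers of other cell types, Fcgr1 (macrophages) had no UMI in WT members. Cdh5 and Kdr (endothelial cells), Il13 and Il5 (group 2 innate lymphoid cells) and Fcer1a (mast cells) had none in members of either library. Other markers of the same cell types were detected. These were 7 of 8 for macrophages in WT, and 6 of 10 for innate lymphoid cells and 4 of 5 for mast cells in each library. For endothelial cells they were 2 of 6 in KO and 1 of 6 in WT.

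The 2 ways into the gate gave different cells. Foxp3 brought in 27 KO and 20 WT cells, called Foxp3+ members below, and Il2ra with Ctla4 alone brought in 22 KO and 7 WT cells, the Foxp3- members. Ikzf2, which encodes Helios, a transcription factor of regulatory T cells, was not used by the gate. It was detected in 23 of 27 Foxp3+ members of KO and 17 of 20 of WT, with medians of 2 UMIs per cell in each and maxima of 23 in KO and 7 in WT. Ctla4 was detected in 25 of 27 and 17 of 20, and Il2ra in 11 of 27 and 12 of 20. Tnfrsf4 (OX40), a costimulatory receptor of regulatory T cells, was detected in 24 of 27 and 12 of 20. Of the other regulatory T cell markers, Tnfrsf18 was detected in 23 of 27 and 13 of 20, and Izumo1r in 19 of 27 and 3 of 20. Lrrc32 was detected in 12 of 27 and 2 of 20, and Ikzf4 in 8 of 27 and 1 of 20. The Foxp3+ members thus carried some markers of the label that the gate had not used, whereas others were rare in WT.

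Many Foxp3- members went against the label. Constant-region transcripts of the gamma delta T cell receptor (Trdc, Tcrg-C1, Tcrg-C2 or Tcrg-C4) were detected in 11 of 22 in KO and 5 of 7 in WT, Trdc itself in 3 of 22 and 3 of 7. Alpha beta constant transcripts (Trac, Trbc1 or Trbc2) were also present, in 22 of 22 in KO and 5 of 7 in WT, with Trac in 13 of 22 and 1 of 7. Trbc2 stood at 665 CPM in Foxp3+ members against 1098 CPM in Foxp3- members in KO (CPM are counts scaled to each population's total, where 100 CPM equal 1 UMI per 10000), and at 724 against 256 CPM in WT. In KO, Ikzf2 stood at 715 CPM in Foxp3+ members, against 99.8 CPM in Foxp3- members, and Tnfrsf4 at 472 CPM against 93.6 CPM. In WT, Ikzf2 stood at 451 against 232 CPM, with overlapping intervals (338 to 590 and 111 to 427). Lrrc32 (GARP, which presents latent TGF-beta), Klrg1 and Il1rl1 had no UMI in the 22 Foxp3- members of KO. In the 7 Foxp3- members of WT Lrrc32 had none either. Il1rl1 and Klrg1 stood at 139 and 69.7 CPM there, against 349 and 102 CPM in Foxp3+ members. Areg stood at 395 CPM in Foxp3- against 255 CPM in Foxp3+ members of WT. The Il1rl1 and Areg UMIs of those Foxp3- members came from 1 cell. Cxcr6, a homing receptor of tissue lymphocytes chosen after its values were seen, stood at 18.3 CPM in Foxp3+ members of KO, against 424 CPM in Foxp3- members, and at 68.1 against 604 CPM in WT. Tmem176a, a membrane protein gene, showed the same order with 160 against 849 CPM in KO and 213 against 813 CPM in WT. Il7r, the IL-7 receptor chain, stood at 408 against 949 CPM in KO and 281 against 813 CPM in WT. T cells with a Trdc UMI outside the gate had 452, 982 and 782 CPM of Cxcr6, Tmem176a and Il7r in KO and 362, 835 and 579 CPM in WT. Results are therefore given for all members, as the gate defines them, and for the Foxp3+ members.

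**Figure D1:**
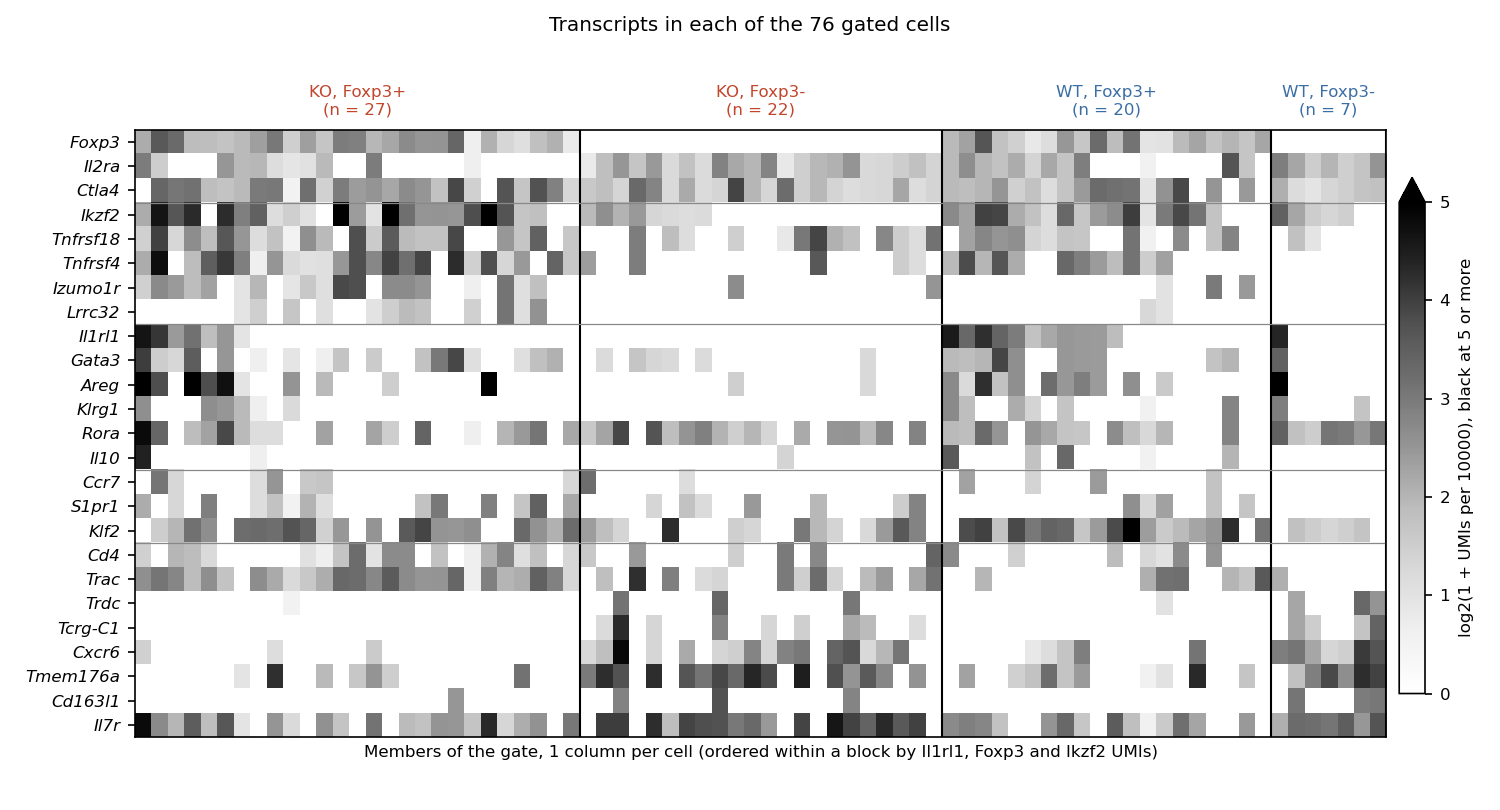
UMIs of 25 genes in every member, as log2(1 + UMIs per 10000), 1 column per cell, with KO Foxp3+ (27), KO Foxp3- (22), WT Foxp3+ (20) and WT Foxp3- (7) members in blocks; the first 3 rows are gate genes. Tnfrsf4 has a UMI in 24 of 27 and 12 of 20 Foxp3+ members of KO and WT and in 5 of 22 and 0 of 7 Foxp3- members, and Cxcr6 in 3 of 27 and 5 of 20 against 16 of 22 and 7 of 7.

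Cells at the edge of the gate were compared as a description. Members with exactly 1 Foxp3 UMI (9 in KO, 14 in WT) had 897 and 431 CPM of Ikzf2, and those with 2 or more (18 and 6) had 636 and 486 CPM. Just outside, T cells with Il2ra but neither Foxp3 nor Ctla4 numbered 63 in KO and 90 in WT. They had 93.1 and 145 CPM of Ikzf2 and carried gamma delta constant transcripts in 42 and 63 cells. Barcodes that met the gate in all but Cd8 numbered 7 in KO and 2 in WT. No KO member and 4 WT members had exactly 2 Cd3 UMIs. In populations that should lack it, Foxp3 stood at 0.171 CPM in KO and 0.316 CPM in WT macrophages, 0.0616 and 0.155 CPM in progenitors, and 0 and 0.291 CPM in B cells. The Foxp3+ members held 330 CPM in KO and 255 CPM in WT, levels that the gate set by requiring a Foxp3 UMI and that are given as a description.

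The members made up 4.23% (49 of 1159, exact Clopper-Pearson interval 3.14 to 5.55) of T-gated cells in KO and 3.05% (27 of 884, 2.02 to 4.41) in WT. The Foxp3+ members alone made up 2.33% (1.54 to 3.37) of T-gated cells in KO and 2.26% (1.39 to 3.47) in WT. These intervals overlap almost wholly. The Foxp3- members made up 1.90% (1.19 to 2.86) in KO and 0.792% (0.319 to 1.62) in WT. The conventional CD4 cells, with a Cd4 UMI and outside the gate, differed far more. They were 27.5% (24.97 to 30.2) of T-gated cells in KO and 5.20% (3.83 to 6.88) in WT. The Foxp3+ members were therefore 7.80% (27 of 346, 5.21 to 11.2) of Foxp3+ and conventional CD4 cells together in KO and 30.3% (20 of 66, 19.6 to 42.9) in WT. The conventional gate needs a Cd4 UMI, whereas the Foxp3+ members do not. Among Foxp3+ members Cd4 was detected in 18 of 27 in KO and 7 of 20 in WT. Conventional cells without a Cd4 UMI are not counted, and the part of Cd4 detection in these shares was not tested. Cd8-gated cells were 30.3% in both libraries, and T cells with a Trdc UMI were 5.26% in KO and 19.1% in WT. T-gated cells had a median of 5399 UMIs in KO and 4053 in WT. When every barcode was thinned to 1500 UMIs before gating, the share was 1.03% (9 of 872, 0.473 to 1.95) in KO and 0.408% (2 of 490, 0.0495 to 1.47) in WT.

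**Figure D2:**
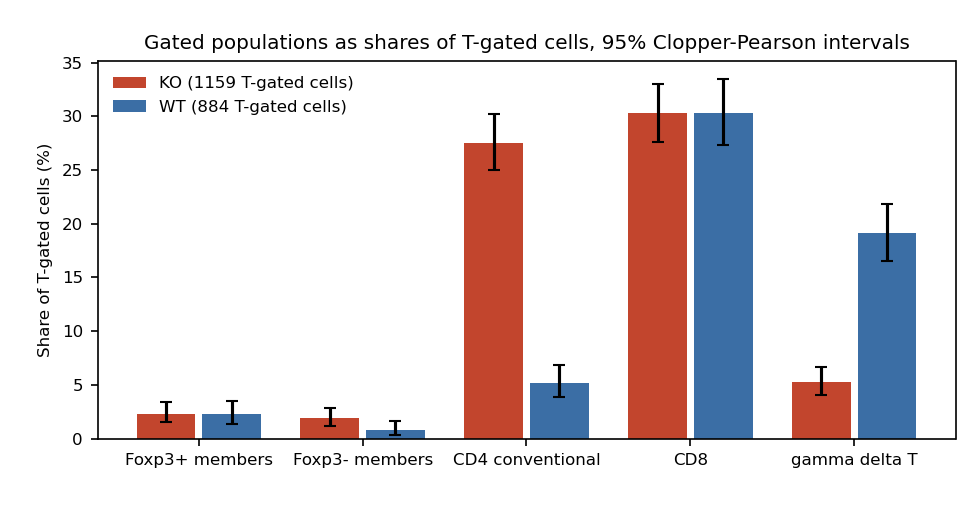
Shares of T-gated cells in percent for KO (left bars, 1159 cells) and WT (right bars, 884 cells), with 95% Clopper-Pearson intervals. Foxp3+ members stand at 2.33% and 2.26%, whereas conventional CD4 cells stand at 27.5% and 5.20%.

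Transcripts that mark regulatory T cells were compared across gated lymphocytes. Ikzf2 was highest in Foxp3+ members, at 715 CPM (607 to 836) in KO and 451 CPM (338 to 590) in WT. It stood at 161 and 132 CPM in T cells with Trdc, 67.5 and 74.2 CPM in CD8 cells and 47.7 and 63.5 CPM in conventional CD4 cells. The intervals of the Foxp3+ members overlapped none of these. Tnfrsf4 stood at 472 CPM in Foxp3+ members of KO and 332 CPM in those of WT, against 211 and 217 CPM in conventional CD4 cells. Tnfrsf18 (GITR), another costimulatory receptor, stood at 325 CPM (254 to 410) and 204 CPM (131 to 304), against 186 and 190 CPM in conventional CD4 cells and 422 CPM (322 to 544) and 201 CPM (123 to 311) in group 2 innate lymphoid cells, so it did not set the Foxp3+ members apart. Izumo1r, the folate receptor 4 of regulatory T cells, stood at 229 CPM in Foxp3+ members of KO and 51.1 CPM in WT, against 52.5 and 26.5 CPM in conventional CD4 cells. Lrrc32 had 119 and 34.0 CPM in Foxp3+ members, against 2.14 and 10.6 CPM in conventional CD4 cells. Gpr83, a receptor of regulatory T cells, had no UMI in Foxp3+ members of either library.

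Il1rl1 and Areg were not restricted to the members. Il1rl1 stood at 156 CPM (108 to 218) in Foxp3+ members of KO and 349 CPM (250 to 473) in those of WT. Cells of the group 2 innate lymphoid gate, which lack Cd3 UMIs and hold Gata3, Rora and Il7r, had 422 CPM in KO and 252 CPM in WT. Conventional CD4 cells had 15.5 CPM in KO and 138 CPM in WT. Areg stood at 674 CPM (569 to 792) and 255 CPM (172 to 365) in Foxp3+ members, against 880 and 604 CPM in innate lymphoid cells and 81.5 and 95.2 CPM in conventional CD4 cells. Gata3 is a gate gene of those innate lymphoid cells. The Foxp3+ members had no UMI of Il13, Il5, Calca or Arg1, which that innate lymphoid population expressed.

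**Figure D3:**
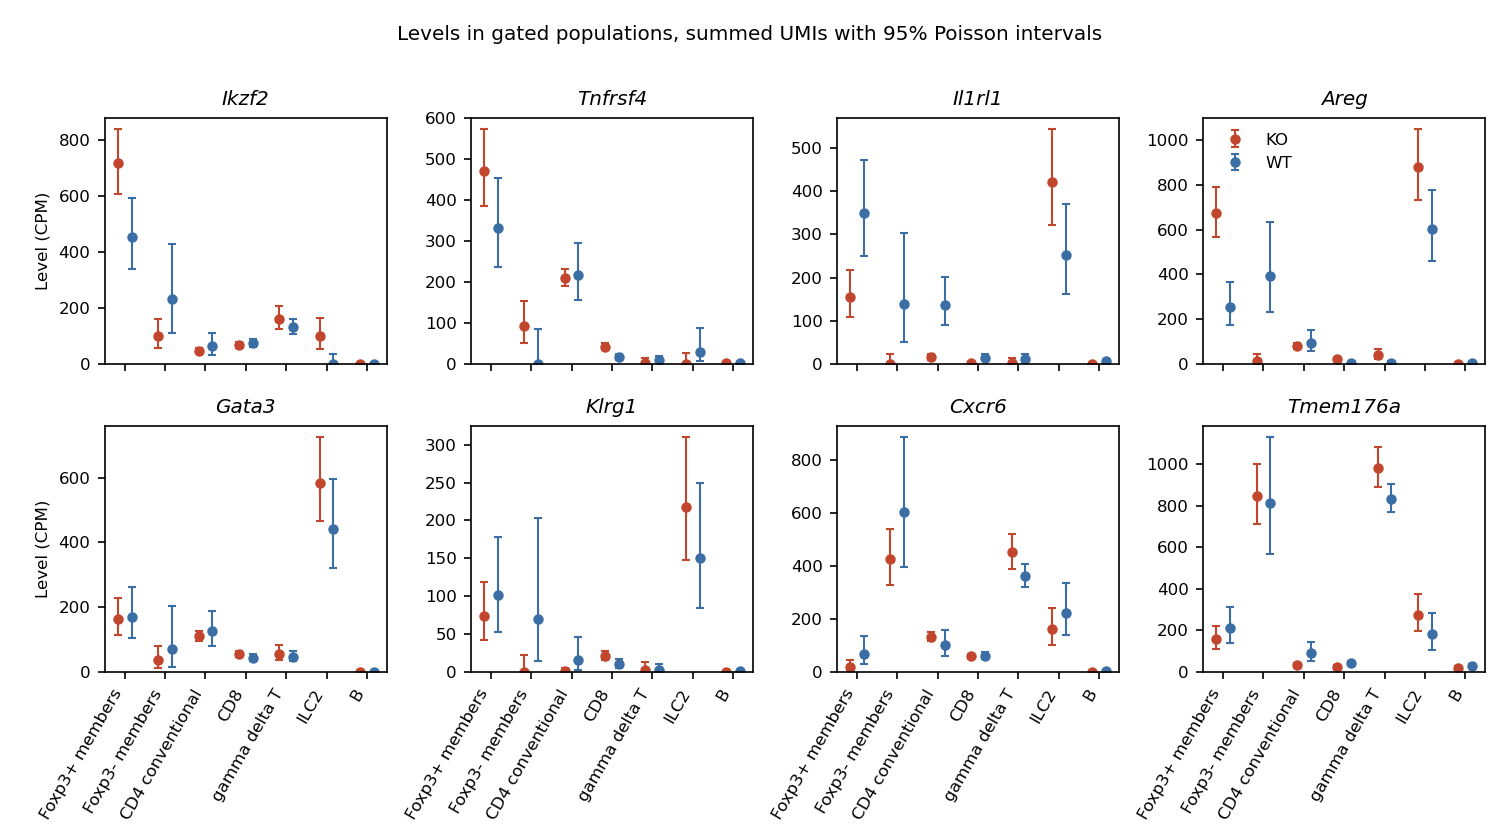
Level in CPM, from summed UMIs with 95% Poisson intervals, of 8 genes in 7 gated populations, KO left and WT right at each. Ikzf2 is highest in Foxp3+ members (715 and 451 CPM), Il1rl1, Areg, Gata3 and Klrg1 are shared with the innate lymphoid gate, and Cxcr6 and Tmem176a are shared between Foxp3- members and T cells with Trdc.

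Each library's members were then set against its own conventional CD4 cells. A gene entered the count when, in each library, its average over both populations reached 50 CPM and the higher one held 30 UMIs, and was called when it differed at least 2-fold the same way in both. Of 790 genes, 18 (2.28%) were higher and 7 (0.886%) lower in all members. Among Foxp3+ members, 10 of 655 genes (1.53%) were higher and 17 (2.60%) lower. Without the members marked above (36 KO and 7 WT cells left), none was called higher and 11 were called lower in members than in conventional CD4 cells. With 7 WT cells few genes could hold 30 UMIs in members, and Ikzf2, with a less extreme ratio (that of the library nearer 0) of 3.04 there, no longer entered the count. The first counts include the gate genes Foxp3 and Cd4, and Il2ra among all members. Ikzf2 led, with log2 ratios of 3.91 (3.52 to 4.30) in KO and 2.83 (1.91 to 3.87) in WT for Foxp3+ members. Areg had 3.05 (2.71 to 3.38) and 1.42 (0.53 to 2.35). Its UMIs were uneven: 10 of 27 KO and 11 of 20 WT cells had any, and 1 KO cell held 51 of 147.

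Il1rl1 had log2 ratios of 3.33 (2.57 to 4.09) in KO and 1.34 (0.60 to 2.11) in WT Foxp3+ members over conventional CD4 cells. Tent5a, a poly(A) polymerase gene, had 1.86 (1.40 to 2.31) and 1.48 (0.71 to 2.29). Zfp36l1, an RNA-binding protein that promotes mRNA decay, had 1.38 (1.09 to 1.67) and 1.36 (0.87 to 1.86), with UMIs in 23 of 27 and 18 of 20 cells; gated after thinning to 1500 UMIs, which leaves 9 KO and 2 WT members, its less extreme ratio was -0.013. Fgl2, a secreted suppressor molecule, was called among all members, with 1.55 (1.16 to 1.93) in KO and 1.21 (0.48 to 1.96) in WT, but had 1.10 and 0.85 in Foxp3+ members and a less extreme ratio of -0.60 when gated after thinning. Ramp1, a coreceptor for the neuropeptide CGRP, had 2.21 (1.46 to 2.93) in KO and 1.22 (0.29 to 2.17) in WT Foxp3+ members, but over all members its less extreme ratio was 1.59, and -0.24 without the members marked as doublet-like. Tmem176a and Tmem176b had log2 ratios of 3.79 and 3.27 in KO and 2.05 and 1.71 in WT over all members. In Foxp3+ members they had 2.29 and 1.84 in KO and 1.24 and 0.98 in WT.

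The antigen-presentation genes H2-Eb1, H2-Ab1 and Cd74 also met the threshold over all members, with log2 ratios of 1.39, 1.15 and 1.24 in KO and 1.37, 1.10 and 1.20 in WT. They came from few cells. The 3 richest Foxp3+ members held 84.4% of the MHC class II and Cd74 UMIs in KO and 85.6% in WT, and the median Foxp3+ member held 3 and 6 such UMIs. Members with at least 3 UMIs of B cell genes numbered 3 in KO and 2 in WT. Without members rich in B, myeloid, NK or MHC class II UMIs, the less extreme ratios of H2-Eb1, H2-Ab1 and Cd74 became -2.45, -3.43 and -2.99.

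Of the genes lower in members, Ccl5, a chemokine of cytotoxic and memory T cells, stood at 885 CPM in Foxp3+ members of KO against 5817 CPM in conventional CD4 cells, and at 281 against 968 CPM in WT. The log2 ratios were -2.72 (-2.93 to -2.51) and -1.79 (-2.37 to -1.24). Nkg7, a cytotoxic granule protein, had -2.06 (-2.56 to -1.61) and -1.54 (-2.76 to -0.48). Cd28, the costimulatory receptor, had -1.29 (-1.78 to -0.84) and -1.34 (-2.23 to -0.53). Tnfsf8 (CD30 ligand) was called in Foxp3+ members but not over all members, where its less extreme ratio was -0.92. It had 55.0 CPM against 115 CPM in KO, and no UMI in WT Foxp3+ members against 317 CPM. Ly6c2 had 50.4 against 187 CPM in KO, all from 1 cell, and no UMI against 222.2 CPM in WT. Gramd3 and Bcl11b were also lower in Foxp3+ members, with log2 ratios of -1.52 and -1.15 in KO and -2.60 and -1.26 in WT. Ms4a4b met the threshold over all members, with -1.30 in KO and -1.23 in WT, but not in Foxp3+ members of WT, where it had -0.85. Cd6, Hist1h4d, Clec2d and Mki67, next in order, had less extreme ratios of -0.99, -0.93, -0.82 and -0.82 over all members and were not called. Without the doublet-like members Ccl5 had a less extreme ratio of -1.77, whereas those of Nkg7, Ly6c2, Cd28, Ms4a4b and Gramd3 (-0.88, -0.88, -0.51, -0.64 and -0.77) were under 2-fold.

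By list, 1 of 5 Treg identity genes that reached the floor was at least 2-fold higher in all members than in conventional CD4 cells of both libraries (Ikzf2) and none lower. So were 2 of 8 genes of the visceral adipose programme (Il1rl1 and Areg), 1 of 3 suppressor molecules (Fgl2) and 1 of 7 TNF receptor and NF-kB genes (Rel). Of the marker lists, H2-Ab1 and Cd74 of dendritic cells, Ighm of B cells and Il1rl1 of innate lymphoid cells were higher, and the remaining lists held no called gene. The median of the less extreme ratio was 0.16 for Treg identity and 0.02 for the adipose programme, against 0 over all 790 genes. Over those 790 genes 2.28% were higher and 0.886% lower, and each list's count rests on 1 or 2 genes.

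The Foxp3+ members differed among themselves by Il1rl1. It was detected in 7 of 27 KO and 11 of 20 WT cells, with 34 and 41 UMIs in all. Doublet-like members were 9 of 27 Foxp3+ members in KO and 14 of 20 in WT. Without them 33 of the 34 Il1rl1 UMIs remained in KO and 14 of the 41 in WT. Most Il1rl1 UMIs of WT thus lay in cells marked as doublet-like, and the split below was not taken without them. All 14 such WT cells met the myeloid limit of 3 UMIs. Some other transcripts of the adipose programme were higher in the Il1rl1+ cells. Areg stood at 2412 CPM in Il1rl1+ and 225 CPM in Il1rl1- Foxp3+ members of KO, and at 427 and 70.7 CPM in WT. The log2 ratios were 3.42 (2.88 to 3.99) and 2.60 (1.07 to 4.57). Gata3 stood at 380 against 110 CPM in KO and 296 against 35.3 CPM in WT, with UMIs in 5 of 7 and 8 of 11 Il1rl1+ cells. Klrg1 stood at 268 against 23.1 CPM in KO and 148 against 53.0 CPM in WT, where the interval of the ratio included 0. Rora, a transcription factor of tissue lymphocytes, stood at 759 against 196 CPM in KO and 345 against 159 CPM in WT, again with an interval that included 0 in WT (-0.07 to 2.43). Il10, the suppressive cytokine, had 12 of its 13 UMIs in 1 KO cell that was Il1rl1+, and 11 of 13 in 3 Il1rl1+ cells in WT. Of the UMIs in the 7 Il1rl1+ cells of KO, that cell also held 51 of 108 for Areg and 9 of 17 for Gata3. It held 16 of 34 for Rora and 14 of 34 for Il1rl1, so the KO ratios rest heavily on it. Tnfrsf4 stood at 871 against 369 CPM in KO and 460 against 194 CPM in WT. Pparg was detected in 5 WT cells, all Il1rl1+, and in 1 KO cell, which was Il1rl1-. Not all genes of the programme were higher in Il1rl1+ cells. Maf had log2 ratios of -0.39 in KO and -0.74 in WT, and Ccr2 0.43 and 0.31, with intervals that included 0. Batf had no UMI in Il1rl1+ and 10 in Il1rl1- cells of WT, and 67.0 against 40.4 CPM in KO. Nfil3 had none and 12 in KO, and 3 and 3 in WT. Of cells with a Gata3 UMI, 12 of 17 in KO and 2 of 10 in WT had no Il1rl1 UMI.

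Ikzf2 did not separate these groups as clearly, with 1005 against 640 CPM in KO and 493 against 406 CPM in WT. Lrrc32 had 1 UMI in the Il1rl1+ cells of KO and none in those of WT, against 25 and 4 UMIs in Il1rl1- cells. The median depth was 5871 UMIs in Il1rl1+ and 6083 in Il1rl1- cells of KO, and 4404 and 3920 in WT. The receptor transcripts differed by library. Trac, the alpha chain constant region, which was chosen after its values were seen, was detected in 6 of 7 Il1rl1+ and 20 of 20 Il1rl1- cells in KO. In WT it was detected in 1 of 11 Il1rl1+ and 6 of 9 Il1rl1- cells. The median Cd3 sum was 7 UMIs in Il1rl1+ and 10 in Il1rl1- cells in KO, and 3 and 7 in WT. Id2, a transcription factor gene shared with innate lymphoid cells, stood at 657 CPM in Il1rl1+ against 35.3 CPM in Il1rl1- cells in WT, and at 179 against 150 CPM in KO. Of its 42 UMIs in WT Foxp3+ members, 7 remained without doublet-like members. No Il1rl1+ Foxp3+ member had a UMI of Il13, Il5, Calca or Arg1, and none had a gamma delta constant UMI.

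**Figure D4:**
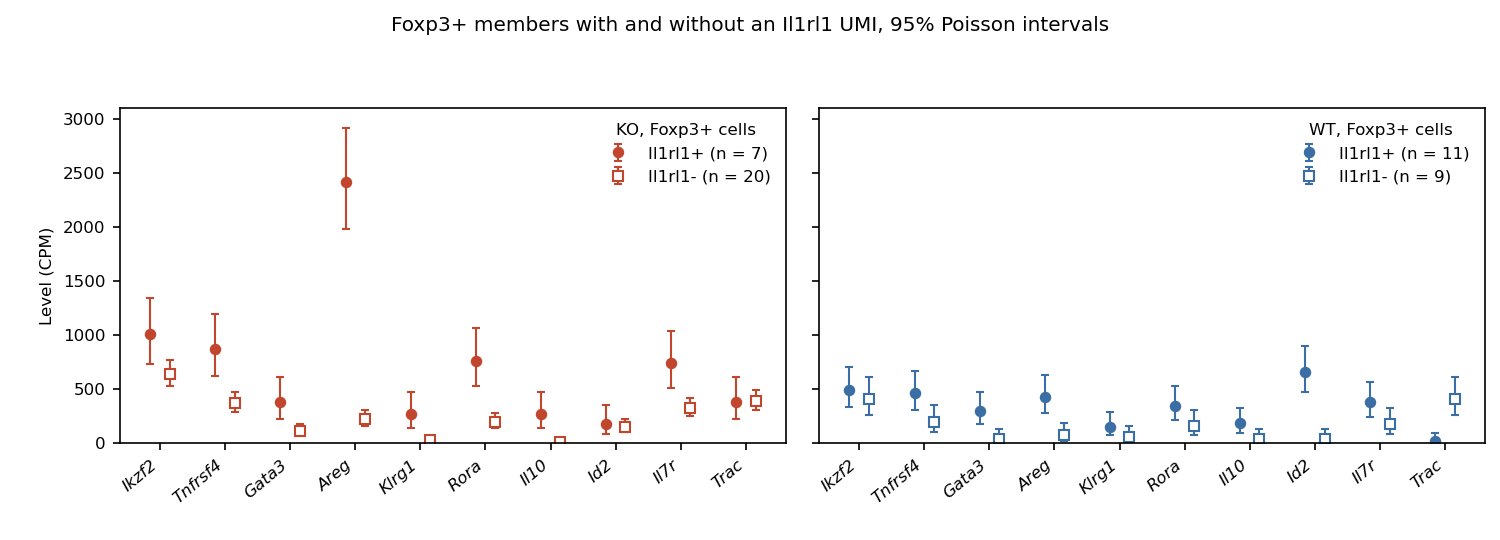
Level in CPM with 95% Poisson intervals of 10 genes in Foxp3+ members with an Il1rl1 UMI (filled) and without (open), KO (7 and 20 cells) left and WT (11 and 9 cells) right. Areg, Gata3 and Tnfrsf4 are higher in Il1rl1+ cells of both libraries, Id2 in WT, and Trac is lower in Il1rl1+ cells of WT (16.4 against 406 CPM). In KO 1 cell holds 51 of the 108 Areg and 9 of the 17 Gata3 UMIs of the Il1rl1+ cells. Without doublet-like members, 14 of the 41 Il1rl1 UMIs of WT remain.

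Il1rl1 lies on mouse chromosome 1 from position 40404864 to 40465418 (GRCm38.p6). Its start regions are shown because Gata3 and Foxp3, both factors of these cells, are DNA-binding. The RefSeq table of GRCm38.p6 holds 2 windows for it, the 250 bases before each of 2 starts, at chr1:40429320-40429569 and chr1:40439379-40439628, both on the plus strand. Capitals mark 2 motifs searched on both strands. The motif of the Gata family was spelled AGATAA, and the forkhead motif was spelled TGTTTAC.
Il1rl1 upstream start: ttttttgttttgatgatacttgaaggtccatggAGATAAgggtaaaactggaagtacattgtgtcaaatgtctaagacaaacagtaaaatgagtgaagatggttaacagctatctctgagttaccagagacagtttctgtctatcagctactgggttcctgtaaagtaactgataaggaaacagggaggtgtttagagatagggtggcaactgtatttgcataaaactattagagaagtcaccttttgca
Il1rl1 downstream start: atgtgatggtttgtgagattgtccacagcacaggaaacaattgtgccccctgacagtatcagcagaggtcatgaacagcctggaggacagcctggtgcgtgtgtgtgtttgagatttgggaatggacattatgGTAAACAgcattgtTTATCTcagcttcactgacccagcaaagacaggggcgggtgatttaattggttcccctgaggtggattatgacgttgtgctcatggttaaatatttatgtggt
Each window holds 1 Gata match, and the downstream one also holds 1 forkhead match, written GTAAACA. Among 32851 promoter windows of the same length, 9.99% hold the Gata letters and 3.17% the forkhead letters. The 3′ libraries do not tell which start was used, and a match of letters is not evidence of binding.

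For KO over WT in members, 1463 genes reached a mean of 50 CPM and 30 UMIs in the higher library. Of these, 147 (10.0%) were at least 2-fold higher in KO and 43 (2.94%) at least 2-fold lower, with a median log2 ratio of 0.27. In Foxp3+ members, 79 of 837 genes (9.44%) were higher and 41 (4.90%) lower, with a median of 0.23. Centred on the median ratio, 74 genes were higher and 65 lower in all members, so the excess of higher calls depended at least in part on the scaling. The floor also treated the libraries unequally. Members held 378433 UMIs in KO and 160531 in WT, so a gene higher in KO reached 30 UMIs at a lower CPM. The numbers of higher and lower genes are therefore not on equal terms.

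Among the 12 highest ratios, several rested largely on 1 or 2 cells. Hist1h1b had 83 UMIs in KO members and 2 in WT, with 97.6% of the KO UMIs in 1 Foxp3- cell, and its log2 ratio in Foxp3+ members was -0.89 (-4.68 to 2.89). Gzma, a granzyme of cytotoxic cells, had 67 and 2 UMIs, with 88.1% in 1 KO cell, and its log2 ratio was -2.13 without members rich in B, myeloid, NK or MHC class II UMIs. Irf8, a transcription factor of B and myeloid cells that activated T cells also express, had a log2 ratio of 2.26 (1.15 to 3.62), and 45.6% of its KO UMIs lay in 1 cell. Without those members its ratio was -1.45, and without the doublet-like members -0.17. Naaa, a lysosomal amidase gene, had 41 UMIs in 7 KO members and none in WT, which put it at least 5.80-fold higher in KO. Of these, 35 of 41 lay in 2 doublet-like Foxp3+ members, which also held 56 of the 79 Irf8 UMIs and 34 of the 49 Ppt1 UMIs. Ppt1, a lysosomal thioesterase gene, had 129 CPM in 13 KO members and 12.5 CPM in 2 WT members, a log2 ratio of 3.38 (1.45 to 6.46) that was 0.53 without the doublet-like members. Tbc1d4, a regulator of glucose transporter traffic, had 145 CPM in 13 KO members and 18.7 CPM in 2 WT members, with a log2 ratio of 2.96 (1.34 to 5.28). Of its KO UMIs 41.8% lay in 1 cell, and without the doublet-like members the ratio was 0.67.

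Others were spread over more cells. Ccl5 stood at 1900 CPM in KO members (23 cells) and 336 CPM in WT (9 cells), with a log2 ratio of 2.498 (2.10 to 2.92) in all members and 1.65 (1.12 to 2.23) in Foxp3+ members. Prkch, a protein kinase C gene of T cells, had 95.1 CPM in 24 KO cells and 18.7 CPM in 3 WT cells. Satb1, a chromatin organiser of the T lineage, had 148 CPM in 21 KO cells and 31.1 CPM in 4 WT cells, a log2 ratio of 2.25 (0.94 to 3.93). Without the doublet-like members Satb1 had 0.74 and Prkch 0.0013. Hist1h1c and Dnajc9 had log2 ratios of 2.53 and 2.27 over all members. In Foxp3+ members the interval of Dnajc9 included 0.

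Of the 12 lowest ratios, several belong to transcripts abundant in other cells of this tissue. Lpl, lipoprotein lipase, stood at 50.2 CPM in KO and 324 CPM in WT members. In macrophages of the same libraries it stood at 2335 and 2743 CPM, and in progenitors at 780 and 911 CPM. Lgals3, Fabp4, Cd36, Ctsb and Timp2 were likewise lower in KO members, with log2 ratios of -2.11, -1.96, -1.73, -1.69 and -1.74. In macrophages of the 2 libraries their levels lay between 884 and 4808 CPM. Cxcl2, a neutrophil chemokine, stood at 111 CPM in KO members and 959 CPM in WT members, with a log2 ratio of -3.11 (-3.64 to -2.61), and at 7045 and 4183 CPM in macrophages. Gated after thinning, with 9 KO and 2 WT members, Cxcl2 had the opposite sign, 0.96. The macrophage and progenitor marker sums given above were also lower in KO than in WT members, and their part in these ratios was not tested.

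Il1rl1, Cd69 and Ltb4r1 were low in macrophages and progenitors, where Il1rl1, the highest of them, had 13.4 and 15.95 CPM in macrophages. Il1rl1 stood at 89.8 CPM in KO and 293 CPM in WT members, with a log2 ratio of -1.70 (-2.39 to -1.04). In Foxp3+ members the ratio was -1.16 (-1.86 to -0.47), and after thinning to 1500 UMIs Il1rl1 was detected in 14.8% of KO and 45.0% of WT Foxp3+ members. Cd69, a tissue-retention and activation receptor, stood at 128 CPM in Foxp3+ members of KO and 502 CPM in those of WT, a log2 ratio of -1.97 (-2.67 to -1.30), with UMIs in 13 of 27 and 14 of 20 cells. Ltb4r1, the leukotriene B4 receptor, had 63.4 and 193 CPM in all members, a log2 ratio of -1.61 (-2.44 to -0.79). The immediate early genes Fosb and Jun had log2 ratios of -1.84 (-2.20 to -1.47) and -1.83 (-2.36 to -1.31), and unlike these receptors they were abundant in progenitors, at 3707 and 4192 CPM in KO and 2040 and 3027 CPM in WT.

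**Figure D5:**
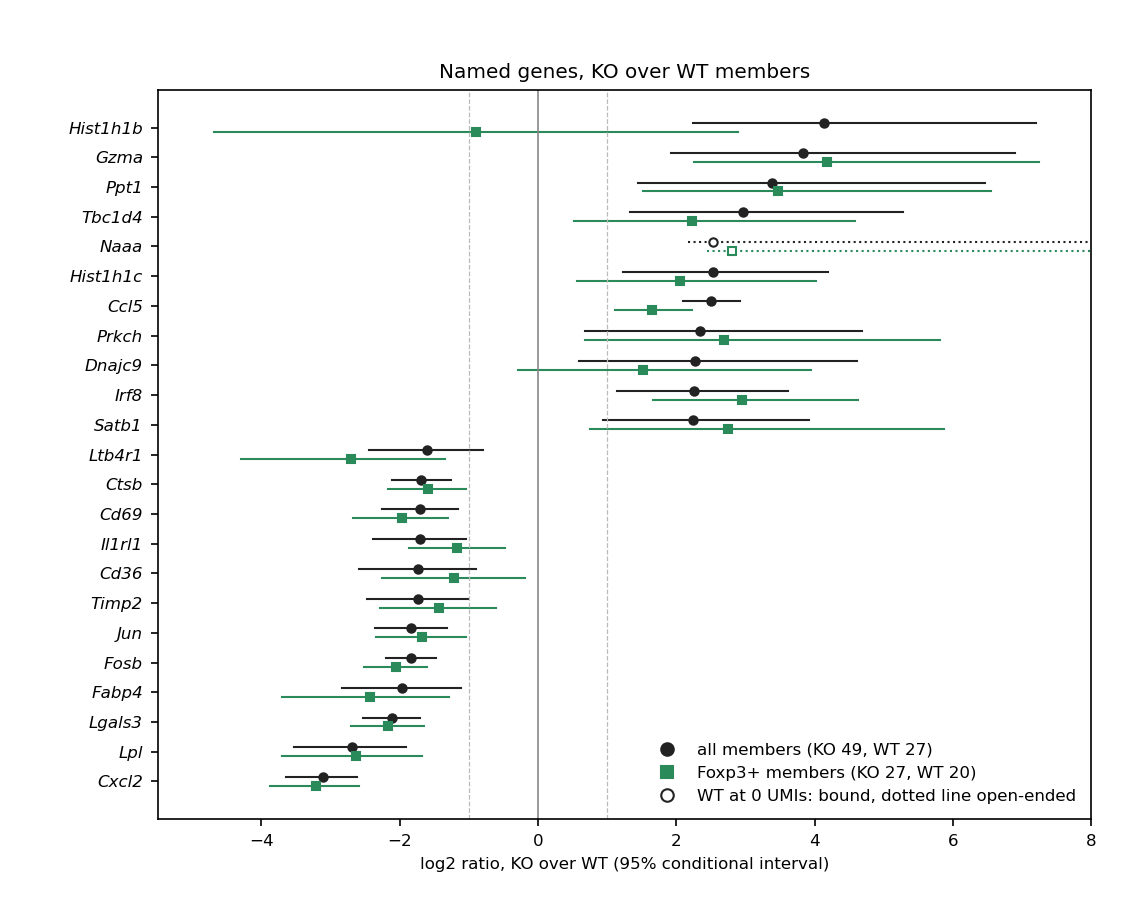
log2 ratio of KO over WT for 11 of the 12 highest and the 12 lowest genes by the naming rule, in all members (circles) and Foxp3+ members (squares), with 95% conditional intervals; Naaa, with no UMI in WT, is drawn as a lower bound. Hist1h1b changes side in Foxp3+ members (4.14 and -0.89), and the interval of Dnajc9 crosses 0 there.

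The Foxp3+ members of the 2 libraries were compared list by list, against 9.44% higher and 4.90% lower over all genes. Of the 12 Treg identity genes, 6 reached the floor, 1 was higher in KO and none lower. Izumo1r stood at 229 CPM in KO and 51.1 CPM in WT, a log2 ratio of 2.17 (0.94 to 3.68), with UMIs in 19 of 27 and 3 of 20 cells. Ikzf2 had 0.66 (0.21 to 1.14), Tnfrsf18 0.67 (-0.01 to 1.40) and Tnfrsf4 0.51 (-0.04 to 1.08). Foxp3 itself had 0.37 (-0.26 to 1.04), a ratio shaped by the gate, which required a Foxp3 UMI, and given only as a description. Of the 17 genes of the visceral adipose programme, 7 reached the floor, with Areg higher at 1.40 (0.83 to 2.02) and Il1rl1 and Id2 lower, Id2 at -1.20 (-1.89 to -0.51). These calls depended on which single cell was left out. Areg was detected in 10 of 27 KO and 11 of 20 WT cells, and without the KO cell that held 51 of its 147 UMIs it had 0.82 (0.22 to 1.47), under 2-fold. Without the WT cell richest in each, Il1rl1 had -0.89 and Id2 -0.92, and without the KO cell richest in each, -1.89 and -1.48. Without the richest cell of each library, Areg, Il1rl1 and Id2 had 1.10, -1.62 and -1.21, all past 2-fold. Under the floor, Gata3 had -0.05 (-0.87 to 0.82) and Klrg1 -0.48 (-1.65 to 0.73). Ccr2, a chemokine receptor, had 0.76 (0.03 to 1.54). The programme's genes thus went both ways, with a median of 0.29.

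Receptors and signalling genes of the common gamma chain cytokines had 3 of 6 higher in KO and none lower, with a median of 0.95. As given above, the floor was easier to reach for genes higher in KO. Il2rb, the IL-2 receptor beta chain, stood at 362 CPM in KO and 68.1 CPM in WT, a log2 ratio of 2.41 (1.36 to 3.67), with UMIs in 20 of 27 and 8 of 20 cells. Without members at a limit of B, myeloid or NK UMIs or of depth, which leaves 18 KO and 6 WT Foxp3+ cells, Il2rb had 1.12 (-0.57 to 3.48), Izumo1r 0.73 (-0.62 to 2.43) and Il1rl1 -0.92 (-1.86 to 0.10), with intervals that all include 0, whereas Tnfrsf4 had 3.07 (1.17 to 6.14) on 75 and 2 UMIs. In conventional CD4 cells Il2rb had 275 and 138 CPM, a log2 ratio of 1.00 (0.43 to 1.62). Socs3, an inhibitor of cytokine signalling, had 1.91 (0.67 to 3.44) and Stat3 1.35 (0.23 to 2.67) in Foxp3+ members. Jak1, the member with the most UMIs, had 0.16 (-0.38 to 0.71).

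Among 13 resting and lymphoid-organ genes, 4 reached the floor and Bcl2, a survival factor, was higher, at 1.91 (0.56 to 3.62). Satb1 and Tcf7, under the floor in Foxp3+ members, had 114.6 and 77.9 CPM in KO and 17.02 CPM each in WT. Of 24 chemokine receptor and adhesion genes, 9 reached the floor. Selplg, the P-selectin ligand, and Itgb2, an integrin chain, were higher at 1.35 (0.53 to 2.26) and 1.29 (0.23 to 2.52), and Cd44, the hyaluronan receptor, was lower at -1.23 (-1.98 to -0.51). Among T cell receptor response genes 3 of 7 were higher (Nr4a2, Irf8 and Cd5) and Cd69 was lower. The 3 higher calls depended on few cells. Irf8 had 56 of its 72 KO UMIs in the 2 doublet-like members named above, and -1.16 (-5.42 to 4.73) without doublet-like members. Nr4a2 had 1.16 (0.30 to 2.12), but 0.78 without its richest KO cell and -0.57 without doublet-like members. Cd5 had 1.15 (0.07 to 2.38), and 0.93 without its richest KO cell. Without doublet-like members Bcl2, Itgb2 and Cd44 had 0.54, 0.43 and -0.83, with intervals that include 0.

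Of 3 suppressor molecules that reached the floor, Icos, a costimulatory receptor, was higher at 1.05 (0.35 to 1.82), or 0.85 without its richest KO cell, and Lgals1 (galectin 1) had -0.53 (-0.85 to -0.21). Among immediate early and heat shock genes 1 of 15 was higher (Btg2, 1.35) and 3 lower (Atf3, Jun and Fosb). In glycolysis 1 of 6 was lower (Pkm, at -1.31, with 52.3% of its WT UMIs in 1 cell). The 2 cell cycle genes that reached the floor, Hmgb2 and Tubb5, were lower at -1.36 and -1.59, with 81.6% and 61.5% of WT UMIs in 1 cell. Without the WT cell richest in each, Hmgb2 had 0.79, Tubb5 -0.51 and Pkm -0.53. None of 9 oxidative phosphorylation, 6 TNF receptor and NF-kB or 3 interferon response genes differed 2-fold. Lpl was the 1 lipid gene at the floor. No helper cytokine reached it in either set of members.

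Camk2d, the gene targeted in myeloid cells, had 11 UMIs (50.4 CPM) in Foxp3+ members of KO and 8 UMIs (68.1 CPM) in those of WT, a log2 ratio of -0.43 (-1.88 to 1.08). These 3′ tags do not test the deletion, since the deleted exons are not given, and regulatory T cells are not the targeted lineage.

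Markers of other cell types were counted in the same way in Foxp3+ members of KO over WT. All 3 adipose progenitor genes that reached the floor (Col3a1, Gsn and Dcn) were lower in KO, with a median of -1.85, as were 3 of 4 erythroid genes, with a median of -1.05. Apoe was lower among 2 macrophage genes, at -1.04 (-1.65 to -0.44). H2-Ab1 was higher among 2 dendritic cell genes and Gzma among 2 NK genes, with 40.1% and 88.1% of the KO UMIs in 1 cell. Il1rl1 was the 1 of 2 innate lymphoid genes that was lower. None of 3 B cell genes differed 2-fold, and no gamma delta T, endothelial or mast cell marker reached the floor. The part of these transcripts in the other differences was not tested.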

How the data were processed

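Each genotype was measured in 1 library of stromal vascular cells. The authors deposited UMI counts per gene and barcode, made, per the submitters' processing notes, with Cell Ranger (5.0.0) and mm10; the same notes list Seurat (4.1.1). Barcodes under 1500 UMIs or 500 genes, or above 15% mitochondrial UMIs, were dropped and the rest gated as described in the report, with C1q under 10 and collagen with Dcn under 30 UMIs per 10000. The members and the 26 gene lists were chosen with earlier results of these data known. Counts were summed per library and population and given as CPM with exact Poisson intervals, and ratios with exact conditional intervals. Where no UMI was seen, bounds took 3 counts. A gene was considered at a mean of 50 CPM and 30 UMIs in the higher group and called at 2-fold. Named genes were the 12 highest and 12 lowest, leaving out gate, ribosomal, mitochondrial, haemoglobin, immunoglobulin, receptor segment and unnamed genes, with intervals excluding 0 for KO over WT. In lists, called members and the member with the most UMIs could be named, and any member of the first 3 lists. Some genes, and results that need them, are not reported here. No doublet caller was run. Members with at least 3 B, myeloid or NK UMIs, or above 3 times the median depth, were left out as an alternative. So, after the data were seen, was the cell richest in a gene. UMIs remove PCR copies, and intervals cover counting error only. In simulated counts for KO over WT members, over 1310 genes, 99.0% of 196 genes changed 4-fold were recovered. Of 1114 unchanged genes 2.51% passed 2-fold, and 95.9% of their intervals held the true ratio. These counts were Poisson draws from the pooled profile of the members, without spread between cells. They check the calculation alone, and the 2.51% is not an error rate for the data. Python 3.11.15, NumPy 2.4.6, SciPy 1.17.1, pandas 2.3.3 and matplotlib 3.10.9 were used.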

Additional observations from a re-analysis of the deposited data

Results flagged for a closer look

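Some genes lay on opposite sides of conventional CD4 cells in KO and in WT, with both counting intervals leaving out 0. With 1 library per genotype the difference was not tested, and most of these genes had been named for their KO over WT ratio. In all members the log2 ratio over conventional CD4 cells was -0.73 in KO and 0.99 in WT for Cd69, -2.72 and 2.04 for Cxcl2, and -0.84 and 0.45 for Fosb. It was 2.10 in KO and -1.35 in WT for Naaa, 1.15 and -2.22 for Ppt1, 1.09 and -1.71 for Socs2, and 0.83 and -2.43 for Tbc1d4. In Foxp3+ members it was -0.78 in KO and 1.21 in WT for Cd69, -2.62 and 2.24 for Cxcl2, -0.88 and 0.62 for Fosb, and -0.96 and 0.91 for Id2. It was 1.21 in KO and -1.19 in WT for Id3, and 2.83 and -0.90 for Naaa. Of the KO Naaa UMIs 35 of 41, and of those of Ppt1 34 of 49, lay in 2 doublet-like members. Cxcl2, gated after thinning to 1500 UMIs, had a KO over WT ratio of the opposite sign (0.96). The WT values of Naaa, and that of Id3 in Foxp3+ members, are bounds at 3 counts, since no UMI was seen there.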

How the results depend on the processing

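No paired analysis was possible because each genotype has 1 library. Depth limits these results, since members are gated on 1 or 2 UMIs. With a Foxp3 UMI as the only gate, the KO share was 2.33%, 79 genes were higher in KO, and 10 were higher and 17 lower than in CD4 cells; Hist1h1b had -0.89. Gated after thinning (9 KO and 2 WT members), the shares were 1.03% in KO and 0.408% in WT, with 35 genes higher and 3 lower in KO, and 0 higher and 3 lower than in CD4 cells. Reversed values there were 0.96 for Cxcl2 (KO over WT) and, over CD4 cells, -0.013 for Zfp36l1, -0.45 for H2-Eb1, -0.60 for Fgl2, -0.031 for Cd74 and -0.60 for H2-Ab1. Without doublet-like members (36 KO and 7 WT left), the shares were 3.11% and 0.792% of all T-gated cells. The doublet-like limits were applied to members alone, so these are not shares of T cells freed of such cells. In that setting 6 genes were lower in KO, and 0 were higher and 11 lower than in CD4 cells. Irf8 then had -0.17, Ramp1 -0.24, H2-Eb1 -1.14, Cd74 -1.50 and H2-Ab1 -2.28. Centring on the median ratio of 0.27 gave 74 higher and 65 lower in KO, a floor of 100 CPM gave 51 higher, and no CPM floor gave 101 lower. At 1.5-fold, 390 were higher and 85 lower in KO, and 31 higher and 29 lower than in CD4 cells. At 3-fold these were 45, 19, 7 and 1. Chosen after seeing the data, leaving out members rich in B, myeloid, NK or MHC class II UMIs (40 KO and 22 WT left) gave 93 higher in KO, and 11 higher and 11 lower than in CD4 cells. Gzma then had -2.13, Irf8 -1.45, H2-Eb1 -2.45, Cd74 -2.99 and H2-Ab1 -3.43. In Foxp3+ members, KO over WT, values that changed sign were 0.65 for Hmgb2, -1.16 for Irf8 and -0.57 for Nr4a2 without doublet-like members, and, chosen after seeing the data, 0.73 for Hmgb2 without the richest cell of each library and 0.79 without that of WT alone. The cause was not tested. Of 220 values of named genes KO over WT in all members under these alternatives, 215 kept their direction, and of 214 over CD4 cells, 201 did.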
